A study of Mus musculus with 9 samples.

Results

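The 10 genes described here are *Ppargc1b*, which encodes the transcriptional co-activator PGC-1β, its relative *Pprc1*, and 8 genes of proteins named as transcription factors. PGC-1 proteins act through these 8 proteins or stand upstream of them. They were taken by symbol from the 55471 genes of the deposited counts, and all 10 were found and passed the filter on low counts. RNA was sequenced from dendritic cells (DCs) grown from the bone marrow of wild-type mice, which were female C57BL/6 animals of 8 to 20 weeks. Marrow was cultured with GM-CSF at 20 ng/mL, a cytokine that drives marrow cells to become DCs, and cells were harvested at day 8 or 9. The 3 groups compared had 3 libraries each, lettered A, B and C: unstimulated DCs, DCs activated with LPS at 100 ng/mL, and DCs treated with IFN-β at 1000 U/mL, all for 6 h. LPS is a bacterial cell wall component and IFN-β a type I interferon. Such cultures hold a mixture of DC-like and macrophage-like cells. Neither the number of mice nor any pooling was given in the sources used here, so p-values measure only the spread between these libraries, which may be technical.

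PGC-1 proteins do not bind DNA themselves. They dock onto nuclear receptors such as ERRα and the PPARs and onto nuclear respiratory factors, recruit histone acetyltransferases, and raise the transcription of genes for respiration and fatty acid oxidation. NRF-1 and GABP in turn act on the genes for TFAM, TFB1M and TFB2M, proteins made in the cytosol and imported into mitochondria. There TFAM packages mitochondrial DNA and starts its transcription together with TFB2M, while TFB1M methylates mitochondrial ribosomal RNA. The question here was whether the RNAs of the partners follow that of *Ppargc1b* when DCs are stimulated.

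Between 33425803 and 43735199 counts per library fell on genes. Values are given as CPM, a gene's counts scaled to the library size corrected by TMM, a factor that allows for differences in composition and ran from 1.18 to 1.26 in unstimulated, 0.783 to 0.841 in LPS-activated and 0.977 to 1.02 in IFN-β-treated DCs. Fold changes and adjusted p-values are from 1 edgeR quasi-likelihood fit of all 16260 genes that passed the filter, and a gene was called at an adjusted p under 0.05. All 8 stimulation markers rose under LPS and 7 of 8 rose under IFN-β. The summed level of 6 DC markers was 4230 to 5060 CPM in unstimulated, 5730 to 6420 CPM in LPS-activated and 4710 to 4980 CPM in IFN-β-treated DCs. That of 6 macrophage markers was 1720 to 2220, 1890 to 2510 and 2390 to 2780 CPM in the same order, with *Mertk*, *Adgre1* and *Fcgr1* called higher and *Csf1r* and *C1qa* lower under LPS, and *Fcgr1* at 97.3 CPM in unstimulated and 567 CPM in IFN-β-treated DCs on average. The DC sum was mostly *Cd74*, *Itgax* and *H2-Ab1*, at 2540, 1370 and 591 CPM on average in unstimulated DCs. *Zbtb46*, *Dpp4* and *Flt3* stood at 32.5, 10 and 3.06 CPM there, so the sums do not give shares of cell types. Neutrophil markers summed to 9.4 to 24.6 CPM and lymphocyte markers to at most 0.283 CPM over all libraries. The part of these shifts in the results was not tested.

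The upstream sequences below show what lies in front of the genes of this pathway. All are from RefSeq windows of GRCm38.p6, with positions counted upstream of the RefSeq transcription start and strand, 5′ to 3′. For *Tfam* (chr10:71238074-71238102, minus strand) and *Gabpa* (chr16:84835020-84835048, plus strand) the lines give the match to the ETS sequence bound by GABP with 11 bases on each side, and the capitals mark CCGGAAG or its reverse complement. The *Tfam* match stood 47 to 41 bases and the *Gabpa* match 93 to 87 bases before the start, both inside exons of annotated transcripts with other starts. For *Tfb1m* (chr17:3557905-3558005, minus strand) and *Tfb2m* (chr1:179546277-179546369, minus strand) the lines give the longest stretch of the window outside annotated exons. The capitals there mark GC boxes (GGGCGG or its reverse complement, the sequence bound by Sp1). The *Tfb1m* stretch lay 250 to 150 bases and the *Tfb2m* stretch 93 to 1 bases before the start, which are different parts of the window. The part of these sequences in the responses was not tested.
Tfam: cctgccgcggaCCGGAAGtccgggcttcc
Gabpa: gagggtaagtgCTTCCGGgtccctcagct
Tfb1m: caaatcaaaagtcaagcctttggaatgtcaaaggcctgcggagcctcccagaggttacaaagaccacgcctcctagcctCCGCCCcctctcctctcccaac
Tfb2m: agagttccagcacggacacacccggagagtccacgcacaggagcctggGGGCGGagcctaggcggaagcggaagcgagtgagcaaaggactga

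Of the 10 genes, 9 had RefSeq windows, 12 in all. In the 250 bases upstream, CCGGAAG on either strand occurred in front of *Tfam* and *Gabpa* among these genes and in 6.91% of all 32851 windows. Only these exact letters were searched, so variants of them were not counted. Such variants are gcggaag in the printed *Tfb2m* stretch and tttccgg, the reverse complement of ccggaaa, in the *Tfb1m* window. The absence of a match therefore does not show that a gene lacks sequence of this kind. GC boxes occurred in 32.7% of all windows and in 8 of these 12, from 7 of the 9 genes. Among the mitochondrial factors, the whole *Tfam* window held 2 GC boxes, that of *Tfb2m* held 3, and that of *Tfb1m* held 1. The ERR half-site AAGGTCA (4.08% of all windows) and the palindromic NRF-1 consensus (0.782%) matched none of the 12 windows, and no matches overlapped. These are matches of letters, and no binding was measured.

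The co-activators came first. *Ppargc1b* (ENSMUSG00000033871, chr18:61298136-61400431, minus strand) was at 37.8, 40.6 and 42.8 CPM in unstimulated libraries A, B and C. It was at 3.18, 3.85 and 3.16 CPM in the LPS-activated libraries and at 26.7, 34.9 and 34.1 CPM in the IFN-β-treated libraries. The 3 LPS libraries, with 90, 132 and 103 raw counts, lay far below all others, and the IFN-β libraries lay below the unstimulated ones without overlap. *Ppargc1b* fell by 3.57 on the log2 scale under LPS (SE 0.129, adjusted p = 5.62e-09), an 11.8-fold difference between groups. Under IFN-β it fell by 0.34 (SE 0.109, adjusted p = 0.0248), a 1.27-fold difference. The IFN-β response lay 3.23 log2 units above the LPS response (SE 0.128, adjusted p = 3.31e-08). In bulk RNA, fewer cells that express a gene and less RNA of it per cell cannot be told apart. The small IFN-β change did not pass the threshold without unstimulated library B (log2 change -0.34), without unstimulated library C (-0.30) or without IFN-β library A (-0.23), while it passed with the letters as a block (-0.35, adjusted p = 0.000832).

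*Pprc1* (ENSMUSG00000055491, chr19:46044886-46072915, plus strand) encodes PRC, a relative of PGC-1β that responds to growth signals. Its unstimulated libraries stood at 54.7, 62.7 and 63.5 CPM, its LPS libraries at 28.2, 38.3 and 30.3 CPM and its IFN-β libraries at 32.9, 46.5 and 43.0 CPM. Both stimulated groups lay below the unstimulated libraries and overlapped each other. *Pprc1* fell by 0.90 under LPS (SE 0.142, adjusted p = 0.000192) and fell by 0.56 under IFN-β (SE 0.14, adjusted p = 0.00719). Its IFN-β response was 0.34 above its LPS response, which missed the threshold (95% interval 0.024 to 0.653 before adjustment, adjusted p = 0.0707) and passed it with the letters as a block (0.34, adjusted p = 0.00135). *Ppargc1a*, which encodes PGC-1α, the family member best known from muscle and brown fat, had at most 3 counts in any library and was not tested.

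**Figure D1:**
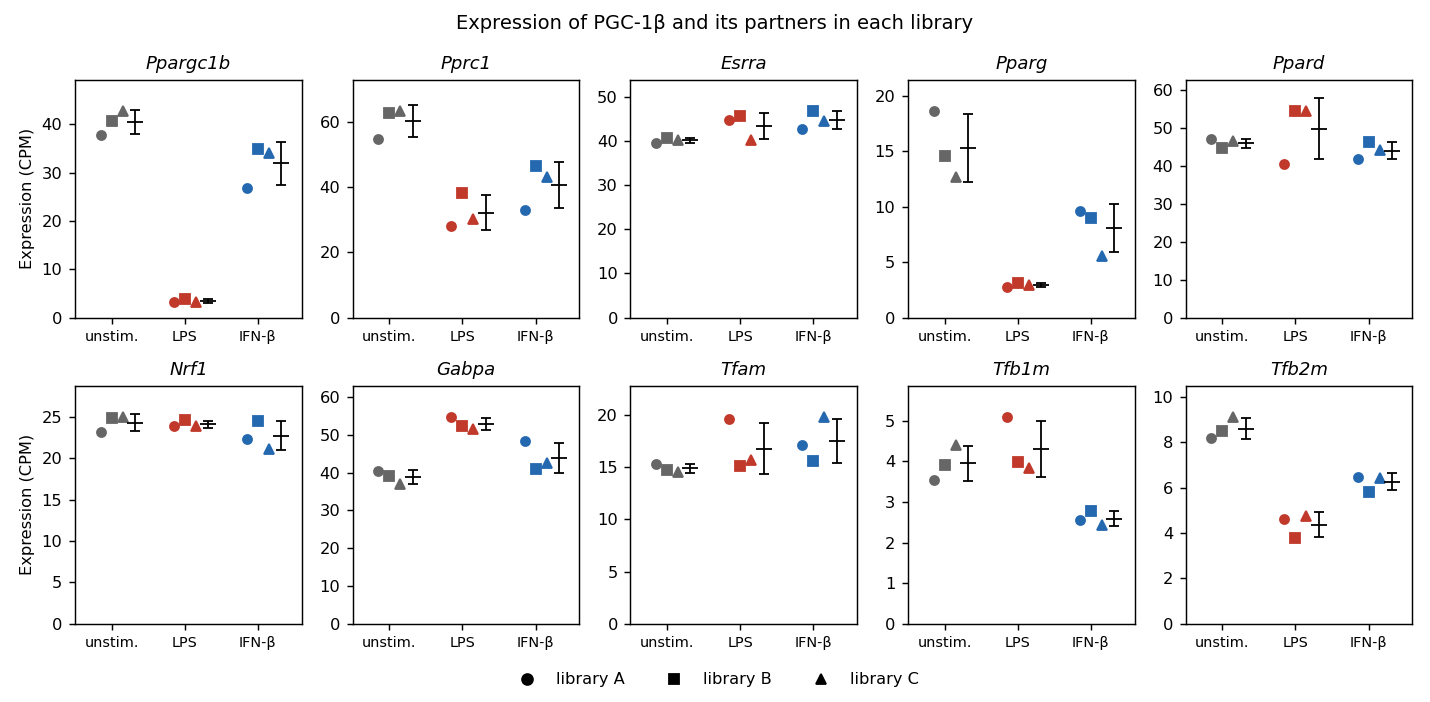
Expression in CPM (linear axis from 0, a separate scale per gene) of the 10 genes in unstimulated, LPS-activated and IFN-β-treated DCs. Symbols are single libraries A, B and C, and the black marks with bars are group means ± SD (n = 3). *Ppargc1b* stood at 3.16 to 3.85 CPM under LPS against 37.8 to 42.8 CPM unstimulated, while *Esrra* and *Nrf1* overlapped between these groups.

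Of the nuclear receptors, *Pparg* fell under both stimuli and the other two were not called. *Esrra* (ENSMUSG00000024955, chr19:6910977-6921813, minus strand) encodes ERRα, the orphan receptor through which PGC-1 proteins act on respiratory genes. It was at 39.5, 40.7 and 40.2 CPM in unstimulated, 44.7, 45.5 and 40.1 CPM in LPS-activated and 42.8, 46.8 and 44.6 CPM in IFN-β-treated DCs. The unstimulated and LPS groups overlapped, and the IFN-β libraries were above the unstimulated ones by a small margin. The log2 change was 0.11 under LPS (95% interval -0.0335 to 0.262, adjusted p = 0.15) and 0.16 under IFN-β (0.00819 to 0.303, adjusted p = 0.0783). With the letters as a block the IFN-β change passed the threshold (adjusted p = 0.0331).

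*Pparg* (ENSMUSG00000000440, chr6:115360951-115490399, plus strand) encodes PPARγ, a lipid-sensing receptor known from fat cells and from macrophages and DCs. It was at 18.7, 14.6 and 12.7 CPM in unstimulated libraries. It was at 2.76, 3.15 and 2.95 CPM under LPS and at 9.63, 8.95 and 5.58 CPM under IFN-β. No 2 groups overlapped, and the unstimulated and IFN-β libraries were spread more widely (19.9% and 26.9% of their means) than the LPS libraries (6.55%). *Pparg* fell by 2.37 under LPS (SE 0.214, adjusted p = 2.72e-06) and fell by 0.92 under IFN-β (SE 0.193, adjusted p = 0.00273), and the responses differed by 1.45 (SE 0.216, adjusted p = 0.000267). The order of *Pparg* across conditions was that of *Ppargc1b*, unstimulated above IFN-β above LPS.

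*Ppard* (ENSMUSG00000002250, chr17:28232700-28301474, plus strand) encodes PPARδ, a receptor tied to fatty acid oxidation. It was at 47.1, 44.8 and 46.5 CPM in unstimulated, 40.5, 54.5 and 54.6 CPM in LPS-activated and 41.8, 46.3 and 44.3 CPM in IFN-β-treated DCs. LPS library A lay below every unstimulated library and the other two LPS libraries lay above. The log2 change under LPS was 0.11 (-0.119 to 0.345, adjusted p = 0.356), and without LPS library A it was 0.24 and passed the threshold (adjusted p = 0.01). Under IFN-β it was -0.06 (-0.295 to 0.168, adjusted p = 0.648). The count ratio of *Pparg* to *Ppard*, examined after their values were seen, was 0.274 to 0.397 in unstimulated, 0.0543 to 0.0685 in LPS-activated and 0.126 to 0.23 in IFN-β-treated libraries. The groups did not overlap, with an exact permutation p of 0.1, the smallest that 3 against 3 libraries can give.

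On the TMM scale neither nuclear respiratory factor was called lower. *Nrf1* (ENSMUSG00000058440, chr6:30047988-30153458, plus strand) encodes NRF-1, which acts on genes for the respiratory chain. It was at 23.2, 24.8 and 25.0 CPM in unstimulated, 23.9, 24.7 and 23.9 CPM in LPS-activated and 22.4, 24.5 and 21.1 CPM in IFN-β-treated DCs. All 3 groups overlapped. The log2 change was -0.01 under LPS (-0.173 to 0.151, adjusted p = 0.904) and -0.10 under IFN-β (-0.263 to 0.0593, adjusted p = 0.279), so that the interval under LPS held changes of at most 0.173 in either direction on the TMM scale. With scaling by totals *Nrf1* was called lower under LPS (-0.594, adjusted p = 0.000121) and under IFN-β (-0.409, adjusted p = 0.00302). On that scale the median of all genes was itself -0.624 under LPS and -0.322 under IFN-β.

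*Gabpa* (ENSMUSG00000008976, chr16:84834925-84863779, plus strand) encodes the DNA-binding subunit of GABP. It was at 40.4, 39.3 and 36.9 CPM in unstimulated, 54.8, 52.4 and 51.7 CPM in LPS-activated and 48.3, 40.9 and 42.5 CPM in IFN-β-treated DCs. The LPS libraries lay above all others, and IFN-β libraries lay just above the unstimulated ones. *Gabpa* rose by 0.45 under LPS on the TMM scale (SE 0.0741, adjusted p = 0.000286), but its change was -0.14 when libraries were scaled by their totals alone. Under IFN-β the change was 0.18 (SE 0.0739, adjusted p = 0.0731), which passed with the letters as a block (0.17, adjusted p = 0.0167). The responses differed by -0.27 (SE 0.0739, adjusted p = 0.0114), a call lost without IFN-β library B (-0.22).

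GABP binds DNA as a complex with a β subunit. *Gabpb1*, the gene of 1 such subunit, rose by 0.86 under LPS (adjusted p = 1.83e-06), a rise that remained with scaling by totals (0.27), and by 0.26 under IFN-β (adjusted p = 0.0127), where scaling by totals gave -0.04. *Gabpb2*, the gene of the other, fell by 0.28 under LPS (adjusted p = 0.00121), and its change under IFN-β was -0.15 (adjusted p = 0.0543, or 0.0308 with the letters as a block). The ratio of *Gabpb1* to *Gabpa* counts, which does not depend on scaling and was examined after the values were seen, was 0.359 to 0.422 in unstimulated, 0.509 to 0.565 in LPS-activated and 0.385 to 0.456 in IFN-β-treated libraries. LPS libraries did not overlap the unstimulated ones (exact permutation p = 0.1), whereas IFN-β libraries did (exact permutation p = 0.4), although the ratio was higher under IFN-β in 3 of 3 same-letter pairs (exact sign-flip p = 0.25, the smallest that 3 pairs allow).

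Of the 3 genes named as mitochondrial transcription factors, *Tfb2m* fell under both stimuli, *Tfb1m* fell under IFN-β, and *Tfam* was not called. *Tfam* (ENSMUSG00000003923, chr10:71225464-71238280, minus strand) was at 15.3, 14.7 and 14.5 CPM in unstimulated, 19.6, 15.1 and 15.7 CPM in LPS-activated and 17.2, 15.6 and 19.8 CPM in IFN-β-treated DCs. The IFN-β libraries were all above the unstimulated ones, and the LPS group overlapped the unstimulated group. The log2 change was 0.18 under LPS (-0.0792 to 0.43, adjusted p = 0.197) and 0.24 under IFN-β (-0.0129 to 0.493, adjusted p = 0.11), the latter passing with the letters as a block (adjusted p = 0.0478).

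*Tfb1m* (ENSMUSG00000036983, chr17:3519256-3557781, minus strand) was at 3.55, 3.91 and 4.40 CPM in unstimulated DCs. It stood at 5.10, 3.99 and 3.84 CPM under LPS and at 2.55, 2.79 and 2.43 CPM under IFN-β. The IFN-β libraries lay below all others. The change under LPS was 0.12 (-0.207 to 0.448, adjusted p = 0.488), and *Tfb1m* fell by 0.61 under IFN-β (SE 0.151, adjusted p = 0.00696). The responses differed by -0.73 (SE 0.152, adjusted p = 0.00243).

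*Tfb2m* (ENSMUSG00000026492, chr1:179528055-179546267, minus strand) was at 8.18, 8.51 and 9.12 CPM in unstimulated, 4.63, 3.76 and 4.73 CPM in LPS-activated and 6.49, 5.82 and 6.43 CPM in IFN-β-treated DCs. No 2 groups overlapped, with IFN-β between the others. *Tfb2m* fell by 0.98 under LPS (SE 0.113, adjusted p = 1.85e-05) and fell by 0.46 under IFN-β (SE 0.109, adjusted p = 0.00535), and the responses differed by 0.52 (SE 0.114, adjusted p = 0.00349). *Tfb1m* and *Tfb2m* thus had the larger fall under different stimuli. The count ratio of *Tfb1m* to *Tfb2m* was 0.434, 0.46 and 0.483 in unstimulated, 1.10, 1.06 and 0.812 in LPS-activated and 0.395, 0.481 and 0.379 in IFN-β-treated libraries. This ratio, examined after the values were seen, was 2.14-fold higher under LPS without overlap (exact permutation p = 0.1, the smallest possible) and overlapped between IFN-β and unstimulated libraries (exact permutation p = 0.3).

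**Figure D2:**
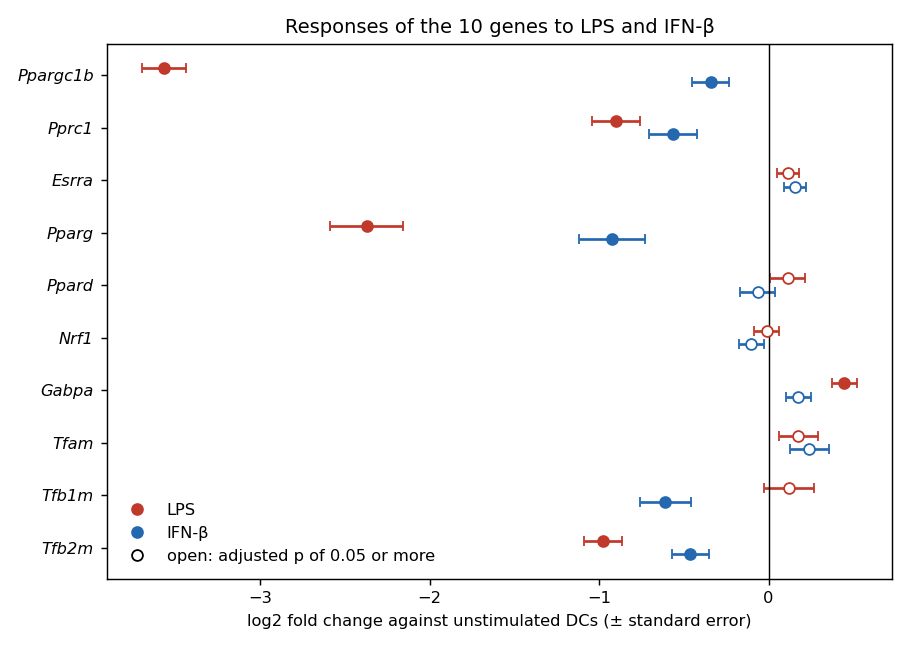
Log2 fold change against unstimulated DCs (x axis) of the 10 genes under LPS (red) and IFN-β (blue), with SE as bars. Filled points passed an adjusted p under 0.05. *Ppargc1b* lay at -3.57 under LPS and -0.34 under IFN-β, and *Gabpa* was the single filled point above 0 on this TMM scale, a sign that turns when libraries are scaled by their totals.

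Counted together, 5 of the 10 genes were called under LPS, 1 higher and 4 lower. Of all 16260 genes tested, 68.2% were called under LPS, 32.8% higher and 35.4% lower. Under IFN-β 5 were called, all lower, against 46.9% of all genes (23.6% higher and 23.3% lower), and with the letters as a block 8 were called, 3 higher and 5 lower, against 56.3% of all genes (27.9% higher and 28.4% lower). The responses to the 2 stimuli differed for 5 of 10 genes, against 49.1% of all genes. Without the block, the share of the 10 called in either direction was below that of all genes under LPS and near it under IFN-β and for the difference of responses, while the 5 lower under IFN-β were a larger share than the 23.3% of all genes. The median absolute log2 change of the 10 was 0.311 under LPS and 0.291 under IFN-β, against 0.649 and 0.353 over all genes. The genes called lower under LPS were *Ppargc1b*, *Pprc1*, *Pparg* and *Tfb2m*, and these 4 and *Tfb1m* were called lower under IFN-β. The LPS and IFN-β comparisons share the unstimulated libraries.

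Whether the partners followed *Ppargc1b* was also examined by the ratio of each partner's counts to those of *Ppargc1b* in the same library, which is free of scaling. Under LPS the ratio of each of the 9 partners was higher than in unstimulated DCs, and in none did the groups overlap. Since *Ppargc1b* is the denominator, the groups did not overlap for 97.6% of all 16259 other genes, with the ratio higher in 97.4% and lower in 0.234%, and the count by itself says nothing particular about the partners. The size of the shift did vary among them. It was smallest for *Pparg*, at 2.32-fold, then 6.02-fold for *Tfb2m* and 6.3-fold for *Pprc1*, and 11.8-fold to 16.2-fold for *Nrf1*, *Ppard*, *Esrra*, *Tfb1m*, *Tfam* and *Gabpa*. *Gabpa* had log2 ratios of -0.05 ± 0.156 (SD, n = 3) in unstimulated and 3.96 ± 0.175 in LPS-activated libraries. *Pparg* went from -1.41 ± 0.37 to -0.20 ± 0.0938 (SD, n = 3). No partner therefore fell as far as *Ppargc1b*.

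Under IFN-β the ratios of 6 of the 9 partners did not overlap the unstimulated libraries, against 55% of all genes (45.4% higher and 9.63% lower). Of these 6, *Esrra*, *Ppard*, *Nrf1*, *Gabpa* and *Tfam* were 1.19-fold to 1.5-fold higher relative to *Ppargc1b*. The ratio of *Pprc1* was lower, at 0.855 of its unstimulated value. Those of *Pparg* (0.66), *Tfb1m* (0.838) and *Tfb2m* (0.925) overlapped between groups. Compared within letters, the ratio of *Pparg* was lower in 3 of 3 pairs and those of *Tfb1m* and *Tfb2m* in 2 of 3. With 3 pairs an exact sign-flip test cannot go below p = 0.25. Over the 27 ratio comparisons, the smallest exact permutation p was 0.1, the floor for 3 against 3, and the smallest after Benjamini-Hochberg adjustment was 0.112, so that none could pass 0.05 in this design.

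**Figure D3:**
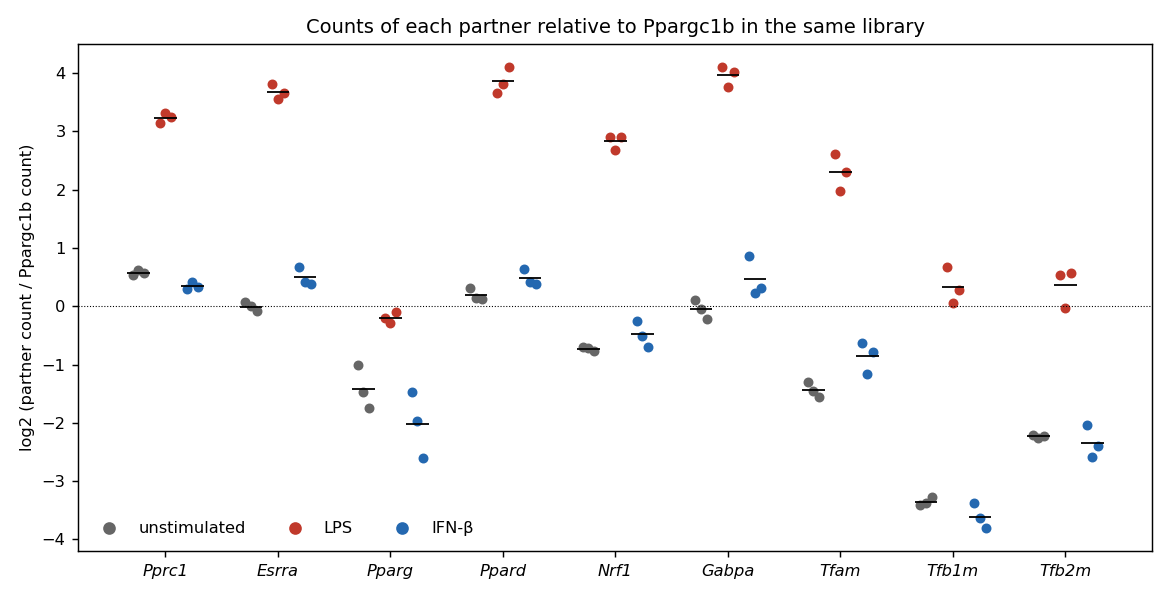
Log2 of each partner's raw counts over those of *Ppargc1b* in the same library (y axis; 0, dotted, is equal counts, with no correction for gene length), for unstimulated (grey), LPS-activated (red) and IFN-β-treated (blue) DCs. Points are libraries and lines are means of 3. Every red group lies above its grey group, by 2.32-fold for *Pparg* and 16.2-fold for *Gabpa*.

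Levels were set side by side between genes as CPM per kilobase of exon. The length was the union of all annotated exons of a gene, 3990 bases for *Ppargc1b* and 10282 bases for *Nrf1*. Ranks between genes depend on this choice, and which transcripts were present was not tested. In unstimulated DCs the order began with *Ppargc1b* (10.1 ± 0.628, SD, n = 3), *Pprc1* (9.60 ± 0.772) and *Esrra* (9.15 ± 0.131), and neighbours among these overlapped. *Gabpa* (6.83 ± 0.32), *Ppard* (6.14 ± 0.159) and *Pparg* (5.19 ± 1.03) followed, the last 2 overlapping, and then *Tfam* (3.35 ± 0.09), *Tfb2m* (3.07 ± 0.168), *Nrf1* (2.37 ± 0.0967) and *Tfb1m* (1.09 ± 0.119), with no overlap between neighbours. Under LPS *Ppargc1b* was the last of the 10 at 0.852 ± 0.0971 CPM per kilobase, overlapping *Pparg* (1.0 ± 0.0654), while *Esrra* (9.90 ± 0.663) and *Gabpa* (9.31 ± 0.286) overlapped at the top. Under IFN-β *Ppargc1b* was second at 7.99 ± 1.13, below *Esrra* (10.2 ± 0.459) and overlapping *Gabpa* (7.72 ± 0.68), and *Tfb1m* was last at 0.718 ± 0.0504. By group means, *Ppargc1b* was thus first in unstimulated, second in IFN-β-treated and last in LPS-activated DCs.

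Directions of the small changes depended on how libraries were scaled. Scaling by totals alone moved the median log2 change of all genes to -0.62 under LPS and -0.32 under IFN-β, from -0.04 and -0.02 on the TMM scale, and 21.9% of the genes called under LPS and 22.3% of those called under IFN-β were then higher, against 48.1% and 50.3%. On that scale all 10 genes had a change below 0 under LPS. Of them 9 were called, with *Gabpa* the exception, against 12683 of all 16260 genes. *Esrra*, *Ppard*, *Gabpa*, *Tfam* and *Tfb1m* turned sign under LPS and *Esrra*, *Gabpa* and *Tfam* under IFN-β, whereas *Ppargc1b*, *Pprc1*, *Pparg* and *Tfb2m* were lower under both stimuli with every scaling tried. Such scaling shifts all genes by nearly the same amount. *Gabpa* was thus bound to be the highest of the 10 under LPS on either scale, which gives no separate check of its rise.

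**Figure D4:**
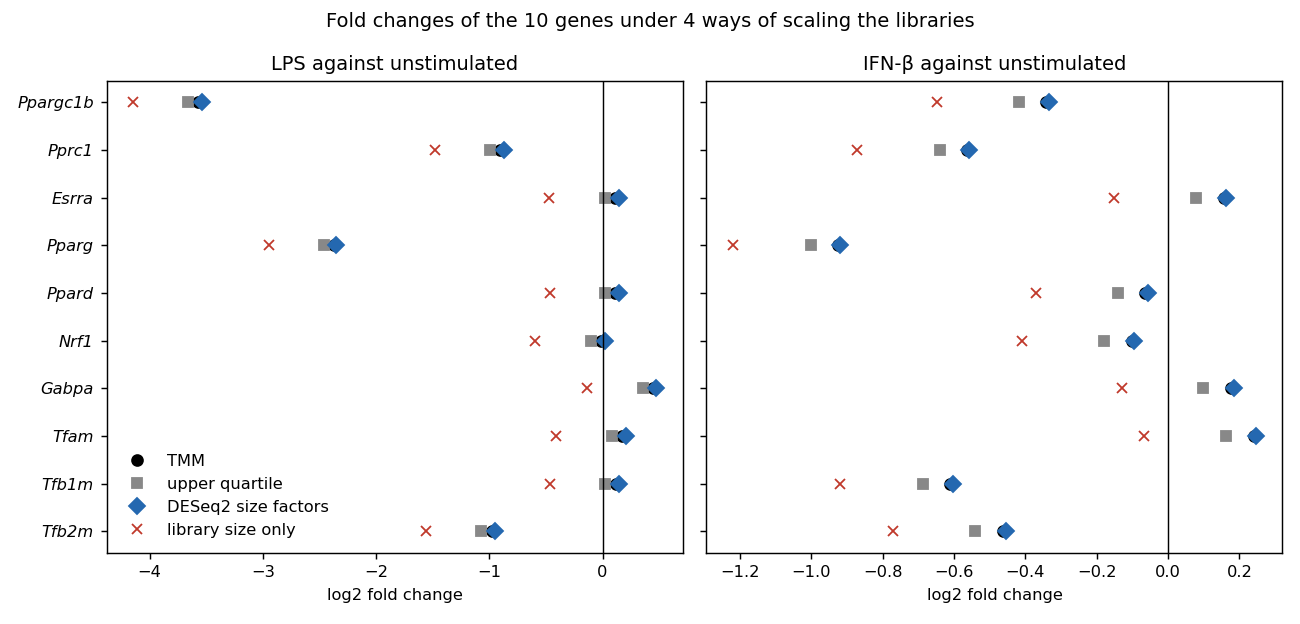
Log2 fold changes (x axis) of the 10 genes under LPS (left) and IFN-β (right) with 4 scalings: TMM (black circles), upper quartile (grey squares), DESeq2 size factors (blue diamonds) and library size only (red crosses). The crosses are shifted to the left, and *Gabpa* under LPS goes from 0.45 with TMM to -0.14 with library size only.

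Some exons overlap those of other genes, and whether the authors counted by strand is not given in the sources used here. *Esrra* shares 164 bases with *Mir6990* and *Trmt112*, *Gabpa* 397 bases with *Atp5j*, *Pprc1* 177 bases with *Ldb1* and *Tfb1m* 142 bases with *Tiam2*. The part of this overlap in their values was not tested.

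The 5 genes nearest to *Ppargc1b* by their pair of log2 changes under LPS and IFN-β, among 12571 genes with at least 1 CPM in unstimulated DCs, were *Tbc1d2* (LPS -3.51, IFN-β -0.24), *9530059O14Rik* (-3.52 and -0.51), *Neurl1b* (-3.71 and -0.46), *Sobp* (-3.35 and -0.47) and ENSMUSG00000118364 (-3.62 and -0.10). Their distances were 0.116 to 0.251 log2 units. The nearest of the 9 partners was *Pparg* at 1.33, then *Tfb2m* at 2.59 and *Pprc1* at 2.67, and the farthest was *Gabpa* at 4.05. These distances are descriptions over 3 groups of 3 libraries.

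Further genes of the pathway were taken from lists. Of 20 other partner factors and family members, 14 were tested. LPS called 5 of them higher and 8 lower (median log2 change -0.302) and IFN-β called 3 higher and 5 lower (median -0.123), to be read, as in the lists that follow, against the 32.8% higher and 35.4% lower under LPS and the 23.6% and 23.3% under IFN-β of all genes. Scaling by totals called 2 higher and 9 lower under LPS and 1 higher and 10 lower under IFN-β. Counts on the totals scale, here and in the lists that follow, are to be read against all genes on that scale. There 12683 of 16260 genes were called under LPS, 21.9% of them higher, and most genes called under IFN-β were also lower. *Nr1h3*, the gene of the oxysterol receptor LXRα, was 1.91 log2 units higher in LPS-activated DCs (adjusted p = 8.02e-06) and 1.09 higher in IFN-β-treated DCs (adjusted p = 0.00108). *Rxra*, the gene of the RXRα receptor with which PPARs bind DNA, fell by 1.17 (adjusted p = 2.26e-06) and fell by 0.61 (adjusted p = 0.000663), and *Thrb*, a thyroid hormone receptor gene, fell by 0.94 under LPS and fell by 1.38 under IFN-β. Of the genes for the other nuclear receptors of this group, *Ppara* and *Esrrb* had at most 2 and 1 counts in a library, and *Esrrg* and *Rxrg* had 0 in all.

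Of 13 enzymes and cofactors that act with PGC-1 proteins, LPS and IFN-β each called 6 higher and 3 lower, with medians of 0.316 and 0.215. With scaling by totals the calls were 1 higher and 8 lower under LPS and 1 higher and 5 lower under IFN-β. *Ncoa1*, a co-activator with acetyltransferase activity, was higher in LPS-activated (0.86) and in IFN-β-treated (1.09) DCs, with either scaling. *Sirt1*, a deacetylase that acts on PGC-1 proteins, was 0.65 and 0.42 higher, and neither passed with scaling by totals (0.0654, adjusted p = 0.543, and 0.116, adjusted p = 0.314). *Kat2a*, the acetyltransferase GCN5, fell by 0.79 under LPS and by 0.37 under IFN-β. *Prmt1*, an arginine methyltransferase, fell by 0.35 under LPS and by 0.60 under IFN-β.

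All 16 listed genes for copying and reading mitochondrial DNA were tested. LPS called 4 higher and 8 lower (median -0.209), and IFN-β 2 higher and 7 lower (median -0.0937). With DESeq2 the LPS calls were 4 higher and 6 lower, where 51.3% of its LPS calls over all genes were higher. With upper-quartile factors they were 2 higher and 9 lower. Scaled by totals, 1 was higher under each stimulus, and 11 under LPS and 9 under IFN-β were lower. *Polrmt*, the RNA polymerase that works with TFAM and TFB2M, fell by 0.90 under LPS (SE 0.125, adjusted p = 7.45e-05) and fell by 0.91 under IFN-β (SE 0.124, adjusted p = 0.000188), from 13.4 ± 0.123 CPM (SD, n = 3) to 7.13 ± 0.577 and 7.11 ± 1.32 CPM. *Mrpl12*, a mitochondrial ribosomal protein gene, had log2 changes of -1.48 and -1.02. *Twnk*, the mitochondrial DNA helicase, fell by 1.43 under LPS and by 0.56 under IFN-β. *Slirp*, which stabilises mitochondrial messenger RNA, rose by 0.90 under LPS and 0.56 after IFN-β. It shares 3036 bases, of 3104 exon bases, with *Alkbh1* and *Snw1* on the other strand. Without known counting by strand, its counts may hold reads of these genes, which was not tested. *Tefm*, an elongation factor, rose by 0.77 under LPS on the TMM scale but did not pass with scaling by totals (0.179, adjusted p = 0.329). *Ssbp1*, which coats single-stranded mitochondrial DNA, rose by 0.27 under IFN-β, where scaling by totals gave -0.04.

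Of 15 PPAR target genes 13 were tested, of which LPS called 2 higher and 6 lower (median -0.128) and IFN-β 4 higher and 5 lower (median 0.198). With scaling by totals LPS called 0 higher and 11 lower, and IFN-β 2 higher and 6 lower (median -0.103). *Angptl4*, a lipase inhibitor gene, fell by 4.66 under LPS (SE 0.441, adjusted p = 3.92e-06) and fell by 2.19 under IFN-β (SE 0.326, adjusted p = 0.000337). Its LPS libraries held 3, 1 and 8 raw counts, so the size of the fall under LPS is uncertain. *Ech1*, an enzyme of fatty acid oxidation, fell by 1.21 under LPS and by 0.50 under IFN-β. *Plin2*, a lipid droplet protein gene, rose by 0.65 under LPS, which did not pass with scaling by totals (0.0653, adjusted p = 0.53), and by 1.03 after IFN-β, *Fabp4*, a fatty acid binding protein gene, rose by 0.91 under IFN-β, and *Hadha*, of mitochondrial fatty acid oxidation, rose by 0.42 under LPS, where scaling by totals gave -0.16. Of these 13 genes, the IFN-β response was above the LPS response in 9 and below it in 1 at the threshold, against 25.8% and 23.3% of all genes.

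All 20 listed respiratory and TCA cycle genes were tested. LPS called 2 higher and 12 lower (median -0.224), and IFN-β 1 higher and 8 lower (median -0.148), where 35.4% and 23.3% of all genes were lower. With DESeq2 the LPS calls were 2 higher and 9 lower, and 51.3% of its LPS calls over all genes were higher. Upper-quartile factors left the LPS calls at 2 higher and 12 lower. When libraries were scaled by totals, each stimulus called 1 higher and 18 lower, on a scale where most genes called were lower. *Idh3a*, a subunit of isocitrate dehydrogenase, had log2 changes of -1.69 and -1.20, and *Acadm*, an enzyme of fatty acid oxidation, had changes of -0.89 and -0.42. *Cycs*, the gene of cytochrome c, rose by 1.46 under LPS and 0.97 after IFN-β, and *Cs*, the citrate synthase gene, rose by 0.55 under LPS, where scaling by totals gave -0.03. Of 13 messenger RNAs of the mitochondrial genome, 10 were tested, and on the TMM scale LPS called 6 higher and IFN-β 2 higher, with none lower (medians 0.449 and 0.212). With scaling by totals none was called, and medians were -0.134 and -0.0958. *mt-Nd6* was 0.59 and 0.66 higher, and *mt-Co1* 0.58 higher under LPS. Of the 13, 6 had at most 35 counts in any library, 3 of them among those tested, while the other 7 had at least 3754. The second call under IFN-β, *mt-Atp6* (1.003), is 1 of these 6 and rested on 5 to 19 counts a library. The share of all counts on these genes was 0.667 to 1.04% over the 9 libraries, and 0.765, 0.667 and 1.04% in LPS libraries against 0.776, 0.858 and 0.959% in unstimulated ones. By that share, which rests almost wholly on the 7 genes with at least 3754 counts, the groups overlapped. It is not a measure of all 13 messenger RNAs. The medians above include the 3 tested genes with few counts, and why these had so few was not tested.

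**Figure D5:**
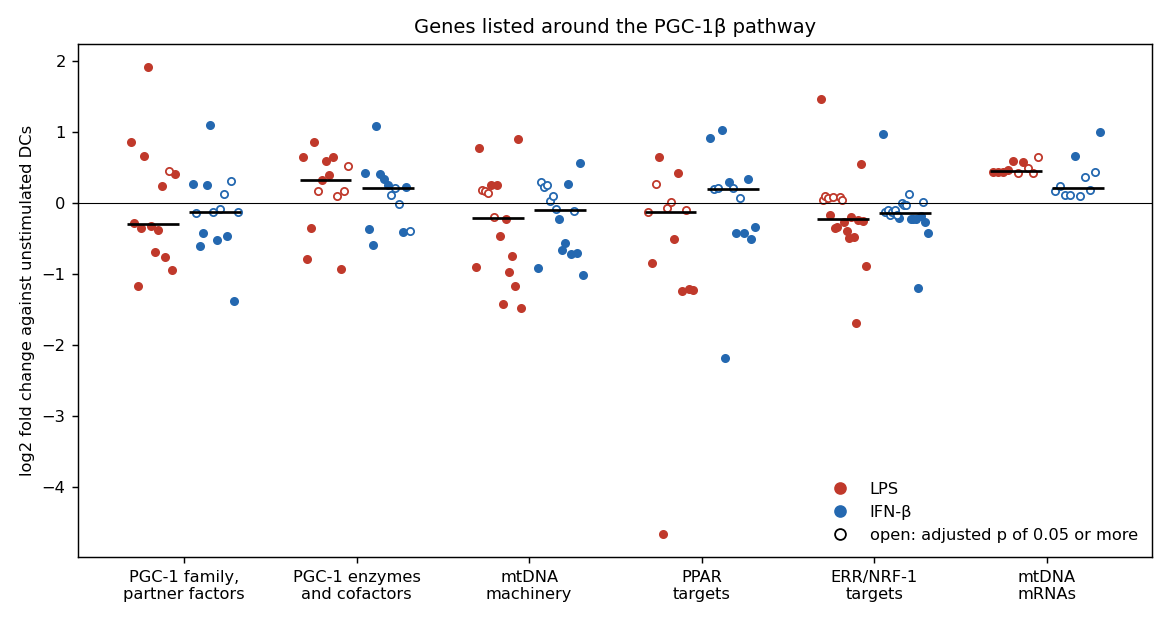
Log2 fold change against unstimulated DCs on the TMM scale (y axis) of the tested genes of 6 lists around the PGC-1β pathway, under LPS (red) and IFN-β (blue). Each point is a gene, filled where the adjusted p was under 0.05, and black lines are medians of the list. The lowest point is *Angptl4* under LPS at -4.66, which rests on 3, 1 and 8 counts in the LPS libraries. The medians of the mitochondrial messenger RNAs, 0.449 and 0.212 here, were below 0 with scaling by totals.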

How the data were processed

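The authors removed ribosomal RNA, trimmed adapters with Trim Galore (0.6.0 in the submitters' processing notes), mapped reads to mm10 with STAR, whose version differs between the sources (2.7.8a in the processing notes), and counted them on GENCODE M20 genes. The authors deposited raw read counts per gene and library, with no normalization and no filter.

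Counts were tested with edgeR 4.0.16 in R 4.3.3 by quasi-likelihood F-tests, with TMM factors, filterByExpr (16260 of 55471 genes kept), 1 term per condition over all 9 libraries and Benjamini-Hochberg adjustment over all tested genes. Intervals are at the 95% level and unadjusted, and the standard error is the absolute log2 fold change over the square root of F. Ratios of raw counts within a library, with 0.5 counts added, were compared by a two-sided exact permutation test. Depth covers counting error only, and libraries of a group differed beyond it in every pair. The fit was tested on simulated data with changes in the LPS libraries alone. It called 97 of 100 genes changed by 2 log2 units but 26 of 100 changed by 0.5. Only 200 genes were changed there and 128 called, against 11084 called under LPS in the data. With fewer calls the adjustment is stricter, so the 26 of 100 does not measure recovery in these data. Changes of the smaller size may still be missed, and how many were missed was not tested.

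The labels give the letters A, B and C without saying what they mark. After subtracting group means, the 9 same-letter pairs correlated across genes at 0.134 to 0.546 and the 18 other pairs averaged -0.194, a value tied to the first by the subtraction, so the letters were taken as pairing the samples from this check alone and used as a block in an alternative fit. Other alternatives were DESeq2 1.42.0, upper-quartile factors, scaling by library size, no filter, at least 10 counts in every library, fits of 2 groups alone, other thresholds and each library left out.

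Gene positions and exon lengths are from GENCODE M21 on GRCm38 (55144 of 55471 identifiers matched). The genes, lists and rules were chosen with earlier results of these data known. Named from each list are the 2 largest changes past the threshold in each direction and stimulus. Some genes that this rule names are not reported here. The 5 genes nearest to *Ppargc1b* were taken by Euclidean distance.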

Additional observations from a re-analysis of the deposited data

Results flagged for a closer look

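For 5 of the 10 genes the IFN-β response differed from the LPS response by the test of that difference (edgeR, adjusted p under 0.05). *Ppargc1b* differed by 3.23 log2 units, *Pparg* by 1.45 and *Tfb2m* by 0.516, all higher in IFN-β-treated DCs. *Gabpa* (-0.27) and *Tfb1m* (-0.73) were lower there. The share was near the 49.1% of all tested genes with such a difference. Beyond these genes, *Polg*, the mitochondrial DNA polymerase gene, and *Ssbp1* were called in opposite directions under the 2 stimuli. *Polg* changed by 0.26 under LPS (adjusted p = 0.0114) and -0.23 under IFN-β (adjusted p = 0.0303), a difference of -0.488. *Ssbp1* changed by -0.23 under LPS (adjusted p = 0.0148) and 0.27 under IFN-β (adjusted p = 0.00859), a difference of 0.497. With scaling by totals, *Polg* was at -0.32 under LPS and *Ssbp1* at -0.04 under IFN-β, so that neither kept opposite signs. Groups of 3 libraries were too small for a test of outlying libraries.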

How the results depend on the processing

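Of 480 recomputed log2 changes of the 10 genes, 442 kept their direction and their side of the threshold and 17 turned sign. Of 102 recomputed counts of genes or members, 97 stayed within 1.5 times, and of 189 recomputed ratios 188 kept their side. Requiring an absolute log2 change of at least 1 left 5429 genes under LPS, 2052 under IFN-β and 2834 for the difference of responses, since fewer can pass. Scaling by library size only called 9 of the 10 genes under LPS, against 12683 of all 16260 genes. It turned *Esrra* (-0.469), *Ppard* (-0.463), *Gabpa* (-0.136), *Tfam* (-0.411) and *Tfb1m* (-0.468) under LPS, *Esrra* (-0.151), *Gabpa* (-0.13) and *Tfam* (-0.0679) under IFN-β, and *Ppard* (0.0939), *Nrf1* (0.185) and *Gabpa* (0.00552) in the difference of responses. It moved the median log2 change of all genes to -0.624 under LPS, -0.322 under IFN-β and 0.294 in the difference of responses, and 21.9% of calls under LPS and 22.3% under IFN-β were then higher. DESeq2 turned *Nrf1* under LPS (0.0185). With the letters as a block, 8 of the 10 genes were called under IFN-β, and among members it changed the calls of *Esrra*, *Gabpa* and *Tfam* under IFN-β and *Pprc1* in the difference of responses and no other. It also called 10 enzymes and cofactors and 3 mitochondrial messenger RNAs in the difference of responses, against 6 and 0. With each library left out in turn, *Ppargc1b* under IFN-β ranged from -0.407 to -0.234 and lost its call 3 times. Sign changes in these runs were near 0: *Nrf1* (-0.0517 to 0.00162) and *Tfb1m* (-0.0118 to 0.198) under LPS, and *Esrra* (-0.0195 to 0.0701) and *Tfam* (-0.0311 to 0.18) in the difference of responses. The ratio of *Tfb2m* to *Ppargc1b* under IFN-β ranged from -0.264 to 0.00786 on the log2 scale. The cause of these changes was not tested. A gene that missed the threshold may still have changed within its printed interval.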
